A study of Mus musculus with 2 samples.

Results

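The 10 genes described here encode the RNA for chains of the basement membrane, the thin sheet of matrix that wraps fat cells and vessels and underlies mesothelium. They were taken by name: the type IV collagen genes Col4a1, Col4a2 and Col4a6, the type XV and XVIII collagen genes Col15a1 and Col18a1, the laminin genes Lama2, Lama4, Lamb1 and Lamc1, and the nidogen gene Nid1. They are 10 of the 31054 genes counted. Both libraries came from gonadal white adipose tissue (gWAT) of 18-month-old male mice that carry p16-CreERT2 and Rosa26-LSL-tdTomato and that received tamoxifen. In these mice the p16 gene drives a Cre recombinase that tamoxifen activates, and Cre then removes a stop sequence before the red reporter tdTomato. Cells negative for the endothelial surface protein CD31 and the leukocyte surface protein CD45 were sorted into a reporter-positive group (Tom+) and a reporter-negative group (Tom-), with 1 droplet library each. The reporter marks cells in which the p16 promoter was active during tamoxifen treatment, and how many mice were pooled is not given in the sources used here.

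Type IV collagen chains wind into trimers that link into a network, and laminins are trimers of an alpha, a beta and a gamma chain that form a second network. Nidogens bridge both networks, and collagens XV and XVIII are multiplexins, which carry sugar chains and sit at the border between basement membrane and interstitial matrix. In adipose tissue, fat cells and their stromal progenitors make basement membrane, a layer of which surrounds each fat cell, and mesothelial cells rest on a basement membrane at the surface of visceral fat.

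The Tom+ library held 61119807 UMIs, the unique molecular identifiers that stand for captured RNA molecules, in 5566 barcodes, and the Tom- library held 96872394 UMIs in 11838 barcodes. Cells were kept at a gene number over 1000 and under 7000 and a mitochondrial UMI share under 8%, which left 3524 in Tom+ and 6717 in Tom-. A cell was called mesothelial with at least 10 UMIs over Msln, Upk3b, Krt19, Lrrn4 and Upk1b (250 Tom+ and 1887 Tom- cells) and stromal with fewer than 5 (3263 and 4800 cells). The mesothelial label fitted markers that the rule did not use, since Wt1, Krt8, Krt18, Bnc1 and Gpm6a summed to 2175 and 2321 UMIs per 1000000 UMIs (CPM) in mesothelial cells and to 176 and 277 CPM in stromal cells, where Wt1 made up nearly all of it. Stromal cells had 24484 and 27693 CPM of 7 progenitor markers, led by Dcn, and mesothelial cells had 11543 and 13031 CPM of them. Of the 7, Cd34 was higher in mesothelial cells, at 435 and 417 CPM against 294 and 292 CPM in stromal cells. The stromal class also held cells rich in immunoglobulin RNA (at least 20 UMIs of 5 immunoglobulin and plasma cell genes), 261 in Tom+ and 95 in Tom-. The mesothelial class held 40 such cells among 250 in Tom+ and 6 among 1887 in Tom-, an uneven split. They were found although CD45+ cells had been sorted away. The 5 immune markers summed to 382 CPM in Tom+ against 196 CPM in Tom- stromal cells, and they did not all go one way, with Lyz2 at 130 and 20.5 CPM but Cd52 at 13.2 and 21.6 CPM. The libraries shared 2224 barcodes, of which 9 passed the limits in both, and those that passed in Tom+ had a median of 42.0 times as many UMIs there as in Tom-. The shared barcodes weighed most on the Tom+ mesothelial cells. Without them, 150 of these 250 cells were left, and 1680 of the 1887 Tom- mesothelial cells. Of stromal cells, 2859 of 3263 were left in Tom+ and 4725 of 4800 in Tom-. The reporter followed the labels, with tdTomato at 211 CPM in Tom+ against 13.1 CPM in Tom- stromal cells, and 780 and 8.25 CPM in mesothelial cells. With 1 library per group there was no test between groups, the sorted groups and the preparations cannot be told apart, and each 95% interval covers counting error only. Each UMI stood for 1 RNA captured at its 3' end, so levels were not divided by gene length, and how well each gene's end was captured was not measured.

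The collagen IV genes lie head to head in pairs. The place where Col4a1 and Col4a2 begin is shown because, of the 10 genes, their levels followed each other most closely over the cell groups below. In GRCm38, Col4a1 (ENSMUSG00000031502) runs on the minus strand of chromosome 8 from 11198423 to 11312826, and Col4a2 (ENSMUSG00000031503) runs on the plus strand from 11312805 to 11449287. Their annotated first exons overlap by 22 bases. These bases, from RefSeq promoter windows of GRCm38.p6 at chr8:11312805-11312826 on the plus strand, were as follows, with the letters GGGCGG in capitals:
Col4a1 and Col4a2 shared start: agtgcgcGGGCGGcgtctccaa
The 300-base promoter windows of both genes held the letters CCAAT and GGGCGG on one strand or the other. Of all 32851 windows, 37.4% held CCAAT and 35.7% held GGGCGG. Of the 10 genes, 8 had a window (9 windows in all, as Col18a1 had 2), and CCAAT was found in 5 windows and GGGCGG in 7. On the X chromosome, Col4a6 (ENSMUSG00000031273, minus strand, 141165403 to 141474076) and its neighbour Col4a5 (plus strand, from 141475385) have 1308 bases between their starts.

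In stromal cells the 10 genes summed to 4221 CPM (4203 to 4238) in Tom+ against 3197 CPM (3182 to 3211) in Tom-, which is 0.422% and 0.320% of all their UMIs. In mesothelial cells the sum was 650 CPM (628 to 672) and 713 CPM (704 to 723). The stromal sum was thus above the mesothelial sum in both libraries, and the median over single cells gave the same order, 3680 and 2709 CPM in stromal against 563 and 542 CPM in mesothelial cells.

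One of the network-forming type IV chains, Col4a1, had the highest stromal level of the 10 genes. Col4a1, the alpha 1 chain, was at 1263 CPM (1253 to 1273) in Tom+ against 878 CPM (871 to 886) in Tom- stromal cells, and at 102 CPM (93.4 to 111) and 139 CPM (135 to 143) in mesothelial cells. Col4a2, the alpha 2 chain that joins Col4a1 in the most widespread trimer, was at 542 and 362 CPM in stromal and 35.7 and 50.2 CPM in mesothelial cells. Both genes were higher in Tom+ than in Tom- stromal cells and lower in Tom+ than in Tom- mesothelial cells. Col4a6, a chain of a rarer trimer with Col4a5, was at 26.4 CPM (25.0 to 27.8) and 14.9 CPM (13.9 to 15.9) in stromal cells and at 44.9 CPM (39.4 to 51.0) and 39.8 CPM (37.7 to 42.0) in mesothelial cells. It was the lowest of the 10 in stromal cells and was higher in mesothelial than in stromal cells of either library.

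The multiplexin genes were divided between the classes. Col15a1 was at 156 CPM (152 to 159) in Tom+ against 206 CPM (202 to 210) in Tom- stromal cells and at 4.70 CPM (3.04 to 6.93) and 13.2 CPM (11.9 to 14.5) in mesothelial cells. Col18a1, whose product is the source of the fragment endostatin, was at 87.3 and 66.4 CPM in stromal and at 153 and 151 CPM in mesothelial cells. Col15a1 was the only one of the 10 whose stromal level was lower in Tom+ than in Tom-, and Col18a1 was the highest of the 10 in mesothelial cells of both libraries.

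Among the laminin genes, Lamc1, the gamma chain of most laminins, led in stromal cells with 412 and 357 CPM and had 77.2 and 81.2 CPM in mesothelial cells. Lamb1 was at 226 and 197 CPM in stromal cells and 31.7 and 41.8 CPM in mesothelial cells. Lama2, the alpha chain of the laminin of muscle and nerve, was at 176 and 161 CPM in stromal and 8.08 and 11.3 CPM in mesothelial cells. Lama4, the alpha chain that is typical of vessels and fat, was at 148 and 143 CPM in stromal and 83.0 and 81.8 CPM in mesothelial cells, the smallest gap between classes of the 4 laminin genes. Nid1, the bridge between laminin and collagen IV, was at 1183 CPM (1174 to 1193) and 812 CPM (805 to 819) in stromal cells and at 110 CPM (101 to 119) and 104 CPM (100.4 to 107) in mesothelial cells. In order of level, Col4a1 and Nid1 came first in stromal cells of both libraries and Col18a1 and Col4a6 last, and in Tom- the intervals of Col4a2 and Lamc1 overlapped. In mesothelial cells of Tom- the order ran from Col18a1 and Col4a1 down to Col15a1 and Lama2, and the intervals of the neighbours Lama4 and Lamc1, Lamb1 and Col4a6, and Col15a1 and Lama2 overlapped.

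**Figure D1:**
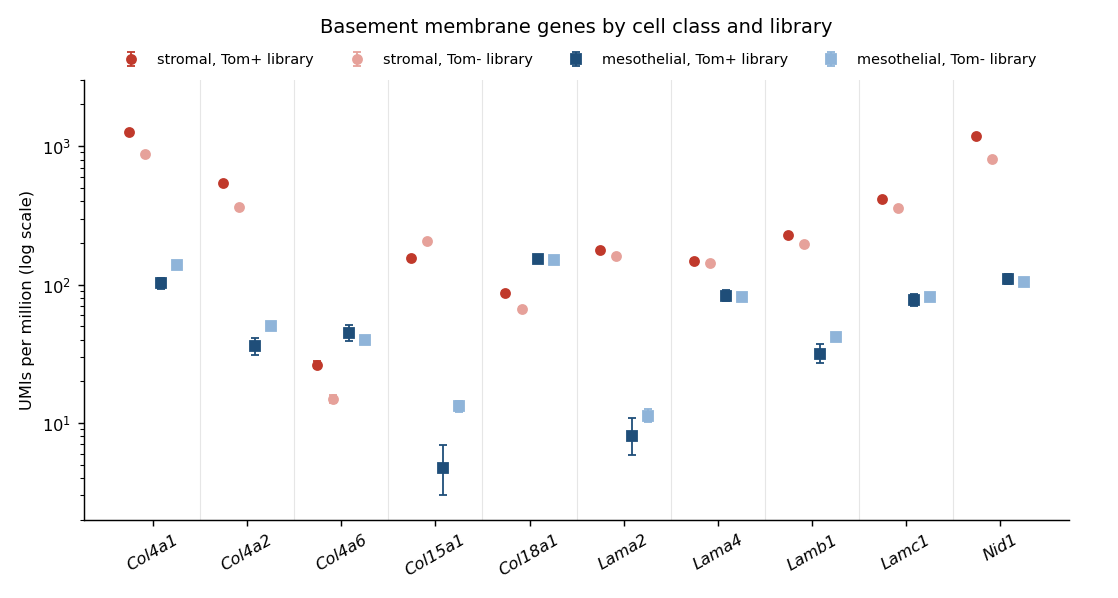
Level of each of the 10 genes in CPM (log axis) in stromal (circles) and mesothelial (squares) cells of the Tom+ and Tom- libraries, with exact Poisson 95% intervals where these exceed the symbol. Stromal levels lie above mesothelial levels for 8 genes and below them for Col4a6 and Col18a1.

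Mesothelial cells had less RNA of most of the 10 genes than stromal cells of the same library, by the most for Col15a1 and Lama2, followed by Nid1, Col4a1 and Col4a2. A gene was counted as past the fold when its log2 ratio, minus the median over the genes that averaged 5 CPM or more, was at least 1 in size. In Tom-, 7 of the 10 genes were lower by this fold, where 10.5% of 10019 genes were, and 2 were higher, Col4a6 and Col18a1, where again 10.5% of genes were. In Tom+, the same 7 were lower, against 11.1% of 10240 genes, and 0 were higher, against 11.7%. The 7 were Col4a1, Col4a2, Col15a1, Lama2, Lamb1, Lamc1 and Nid1, and the median over the 10 genes relative to all genes was -2.59 in Tom- and -3.24 in Tom+. Relative log2 ratios were -4.11 in Tom- and -5.16 in Tom+ for Col15a1, and -3.97 and -4.56 for Lama2. Those of Nid1 (-3.10 and -3.54), Col4a1 (-2.80 and -3.74) and Col4a2 (-2.99 and -4.04) came next. Relative log2 ratios of Col4a6 were 1.28 in Tom- and 0.66 in Tom+, and those of Col18a1 were 1.05 and 0.69, so both pointed the same way in each library and lay on either side of the limit. For Lama4 the ratios were -0.94 and -0.95, just inside the limit.

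RNA of stromal marker genes was also found in the mesothelial class, at levels that differed by marker. A gene at or below the marker chosen as reference cannot be told from background by that reference. Lum, a stromal proteoglycan gene used here as the reference, had a mesothelial level of 3.87% (3.39 to 4.40) of the stromal level in Tom+ and 8.83% (8.51 to 9.17) in Tom-. Col15a1 stood at 3.02% (1.95 to 4.46) and 6.39% (5.79 to 7.04), and Lama2 at 4.58% (3.32 to 6.18) and 7.04% (6.32 to 7.81). Neither was above Lum beyond counting error in either library, so their mesothelial levels could not be told from background by this reference. Where these UMIs came from was not tested. Col4a1 stood at 8.06% (7.39 to 8.77) and 15.9% (15.4 to 16.3), Col4a2 at 6.59% and 13.9%, and Nid1 at 9.31% and 12.8%. These 3 were above Lum in both libraries but no higher than Pdgfra, another stromal marker, at 12.2% and 18.2%. Pdgfrb, a further stromal marker, stood at 7.90% (6.15 to 9.99) and 10.5% (9.46 to 11.6). The 3 genes were above Pdgfrb beyond counting error in Tom- but not in Tom+. Lamb1 stood at 14.0% and 21.2%, Lamc1 at 18.7% and 22.8%, Lama4 at 56.0% and 57.3%, Col18a1 at 175% and 227%, and Col4a6 at 170% and 267%. Lamc1, Lama4, Col18a1 and Col4a6 were thus above Lum, Pdgfra and Pdgfrb in both libraries. Not every stromal marker was this low in the class, since Dcn was at 9987 and 11318 CPM in mesothelial against 18504 and 22289.7 CPM in stromal cells. Col1a1 was at 826 and 929 CPM against 2758 and 2287 CPM, and Cd34 was higher in mesothelial cells. As a percent of its stromal level, Lamc1 lay below Dcn, Col1a1 and Cd34. Lama4 lay below Cd34, and in Tom+ its interval held the value of Dcn. The places of Lamc1 and Lama4 above background thus depend on the markers chosen.

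**Figure D2:**
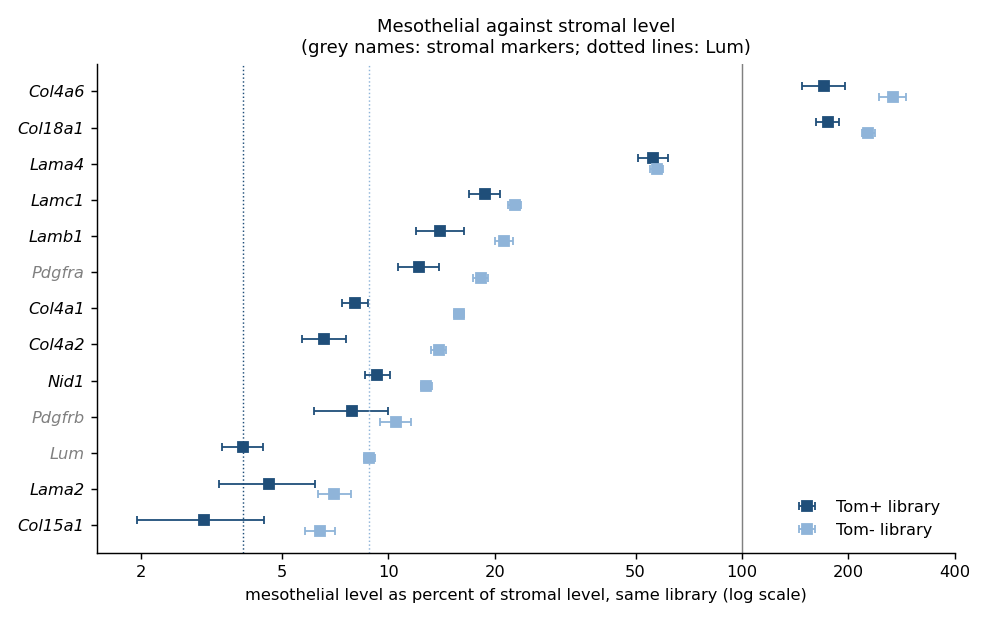
Mesothelial level of each gene as a percent of its stromal level in the same library (log axis), with exact conditional 95% intervals; grey names are stromal markers, dotted lines the values of Lum, and the solid line equal levels. Col15a1 and Lama2 lie at or below Lum within their intervals, and Col4a6 and Col18a1 lie above 100%.

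The shares of cells with a UMI also differed between the classes once every cell was thinned to 5000 UMIs, which left 3144 and 4547 stromal and 250 and 1856 mesothelial cells. A Nid1 UMI was found in 92.3% (91.3 to 93.2) of Tom+ and 89.2% (88.3 to 90.1) of Tom- stromal cells, and in 27.6% (22.2 to 33.6) and 28.5% (26.5 to 30.6) of mesothelial cells. For Col4a1 the shares were 85.7% and 81.6% in stromal and 34.0% and 34.7% in mesothelial cells. Col15a1 had 37.7% and 47.6% in stromal against 2.80% and 3.34% in mesothelial cells, and Lama2 55.8% and 51.8% against 5.20% and 3.66%. The mesothelial shares of Col4a2 were 17.2% and 17.0% and those of Lamb1 14.4% and 16.3%. A Lum UMI was found in 89.0% and 86.6% of stromal and in 16.4% and 19.2% (17.4 to 21.0) of mesothelial cells. Such a share depends on a gene's level, so the share of Lum is no common limit for genes of other levels. The mesothelial shares of Col4a6 were 18.4% and 15.6%, against 10.7% and 6.60% in stromal cells. Col18a1 had 52.0% (45.6 to 58.3) and 50.6% (48.3 to 52.9) in mesothelial cells against 30.3% and 25.0% in stromal cells. Before thinning, stromal cells had a median of 14235 UMIs in Tom+ and 11270 in Tom-, mesothelial cells 18601.5 and 14753, and the Nid1 shares were 95.8% and 94.2% in stromal and 68.8% and 56.0% in mesothelial cells. In Tom-, mesothelial cells with a Col15a1 UMI more often held some of the other members, but not all of them. Of the 62 such thinned cells, 72.6% also had a Nid1 UMI, against 27.0% of those without Col15a1, and 29.0% had a Lama2 UMI, against 2.79%. For Col18a1 the shares were 51.6% and 50.6%. A Col15a1 UMI was found in 3.11% of cells with and 3.38% of cells without a Col4a6 UMI. In Tom+ only 7 thinned mesothelial cells had a Col15a1 UMI.

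Within each chain family the UMIs of the classes had a different makeup. Mesothelial Col4a1, Col4a2 and Nid1 were no higher than Pdgfra as a percent of stromal level, though above Pdgfrb in Tom-. Mesothelial Lama2 could not be told from background by Lum. How much of the mesothelial UMIs of these genes was stromal RNA was not tested, which limits the mesothelial shares and ratios below. Type IV collagen UMIs of stromal cells were 63.1% and 63.9% Col4a1 and 27.1% and 26.4% Col4a2, in Tom+ and Tom-. In mesothelial cells Col4a1 made up 30.6% (28.5 to 32.8) and 37.7% (36.8 to 38.5), Col4a5 33.0% (30.8 to 35.2) and 28.1% (27.3 to 29.0), and Col4a6 13.5% and 10.8% (10.2 to 11.3), where Col4a6 had 1.32% and 1.08% in stromal cells. The ratio of Col4a1 to Col4a2 moved little, from 2.33 (2.30 to 2.36) and 2.42 (2.39 to 2.46) in stromal to 2.85 (2.41 to 3.38) and 2.77 (2.62 to 2.94) in mesothelial cells.

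Laminin alpha UMIs of stromal cells were split between Lama2 (54.1% and 52.8%) and Lama4 (45.5% and 46.9%). In mesothelial cells Lama4 made up 81.1% (77.6 to 84.3) and 78.2% (76.7 to 79.6), and Lama5, an alpha chain typical of epithelia, 9.54% (7.21 to 12.3) and 9.92% (8.94 to 11.0). Of the beta chains, Lamb1 had 57.7% and 50.2% in stromal cells, and Lamb2 had 85.3% (83.1 to 87.3) and 81.0% (80.0 to 81.9) in mesothelial cells. Nid1 made up 95.3% and 92.6% of nidogen UMIs in stromal cells, and Nid2 56.8% (54.1 to 59.4) and 62.4% (61.4 to 63.4) in mesothelial cells. The makeup of mesothelial cells thus differed from that of stromal cells by more than it differed between the libraries in each of these 4 families.

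**Figure D3:**
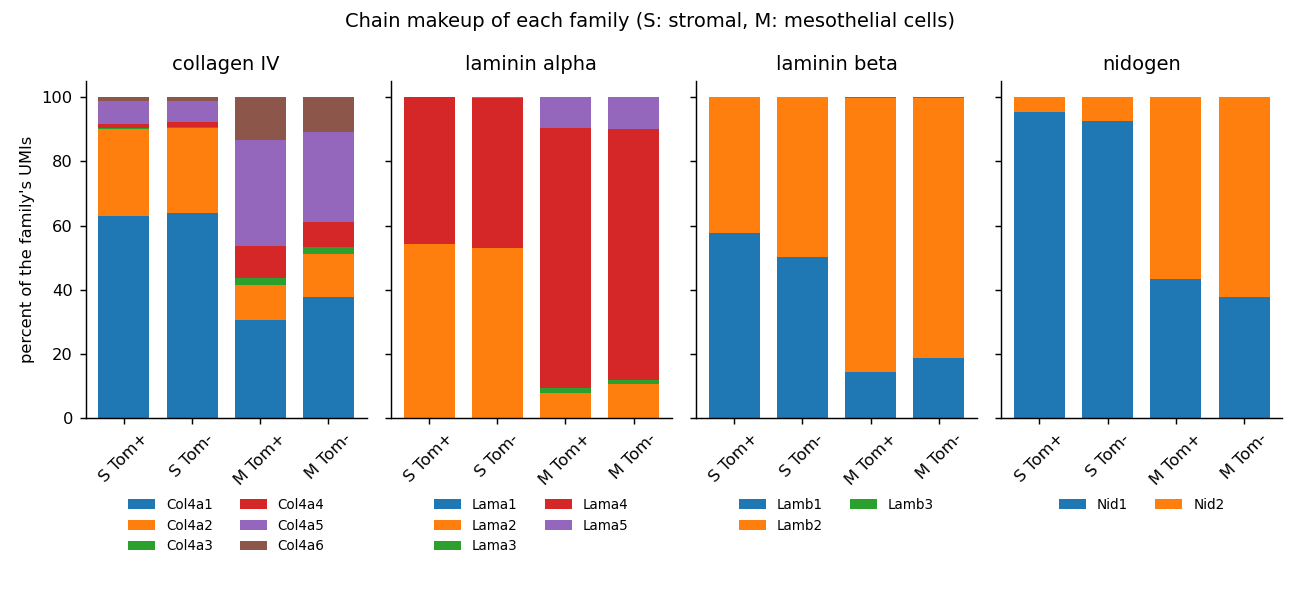
Share of each chain among all UMIs of its family (vertical axis, percent) in stromal (S) and mesothelial (M) cells of each library; each bar sums to 100%. Mesothelial bars hold more Col4a5, Col4a6, Lama4, Lama5, Lamb2 and Nid2 than stromal bars in both libraries.

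The other basement membrane components were more often higher than lower in mesothelial cells, and the processing genes were not. Of 21 further components with enough UMIs in Tom-, 7 were higher in mesothelial cells (Fras1 5.17, Lama5 4.09, Lamc3 3.81, Efemp1 1.77, Agrn 1.499, Nid2 1.28 and Tinagl1 1.26 on the relative log2 scale), and 4 were lower (Egflam, Col6a6, Hspg2 and Smoc2), with a median of 0.37. Hspg2, the perlecan gene, was at 253 CPM in stromal and 81.7 CPM in mesothelial cells. Of 12 genes for collagen processing and crosslinking, 0 were higher and 5 lower (Pxdn, P4ha2, Plod1, Loxl1 and Loxl2), with a median of -0.81. Of 12 receptor genes, 5 were higher, with the laminin receptor genes Bcam at 6.30 (304 against 3.51 CPM), Itga3 at 5.68 and Itga6 at 3.28, and 2 were lower, the integrin gene Itga9 at -3.11 and the collagen receptor gene Ddr2 at -1.75. In Tom+ the counts were 10 higher and 5 lower of 21 components, 0 and 7 of 12 processing genes, and 6 and 3 of 12 receptors. Over all genes tested, 10.5% were higher and 10.5% lower in Tom-, and 11.7% and 11.1% in Tom+.

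Between the libraries, stromal cells of Tom+ had more Col4a1, Col4a2, Col4a6 and Nid1 RNA than those of Tom-, and less Col15a1 RNA. The limit for this comparison was a relative log2 ratio of 0.5. Of the 10 genes, 2 were higher by it, where 4.14% of 9778 genes were, and 0 were lower, where 5.88% were. The 2 were Col4a6, at 0.75 (0.63 to 0.88) and percentile 98.6 of all genes, and Col4a2, at 0.51 (0.48 to 0.54) and percentile 96.1. Just inside the limit were Nid1 at 0.47 (0.45 to 0.49), Col4a1 at 0.45 (0.44 to 0.47) and, on the lower side, Col15a1 at -0.48 (-0.52 to -0.43). In 7 of the alternative settings Col15a1 passed the lower limit, and Col4a2 lay between 0.43 and 0.58 over all settings, on either side of the upper one. Col18a1 was at 0.32, and Lama2, Lamb1, Lamc1 and Lama4 lay between -0.016 and 0.14. Col4a1, Col4a2, Col4a6 and Nid1 thus stood near or past the limit and the 4 laminin genes near the median of all genes. The median over the 10 was 0.23. The further collagen IV and nidogen genes did not all follow. Nid2 was at 58.4 CPM in Tom+ against 64.7 CPM in Tom- stromal cells, and Col4a3 at 3.64 and 4.03 CPM. Col4a4 was at 26.8 and 22.5 CPM and Col4a5 at 141 and 92.5 CPM.

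For Col4a1, Nid1, Col4a6 and Col15a1 the stromal differences were as large without the cells that carried immune RNA. Leaving out immunoglobulin-rich cells and cells with at least 5 UMIs of Lyz2, Ptprc and Laptm5, Col4a1 was at 1357 CPM in Tom+ against 901 CPM in Tom-, Nid1 at 1317 and 839 CPM, Col4a6 at 30.0 and 15.6 CPM, and Col15a1 at 159 and 210 CPM. Nid1 (0.52) and Col15a1 (-0.53) were then past the limits. This choice of cells was made after the data were seen.

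Among the other basement membrane genes of stromal cells, 17 components were tested and 2 were higher in Tom+, Hmcn1 (0.58) and Col4a5 (0.54), the neighbour of Col4a6. Lower were 3, among them the fibulin genes Fbln1 (-1.03, 231 against 448 CPM) and Efemp1 (-0.73). Of 12 processing genes, Pxdn, whose product crosslinks collagen IV, was at 0.56 and Loxl2, a lysyl oxidase gene, at 0.54, and 0 were lower. Of 9 receptors, the syndecan gene Sdc1, which plasma cells also express, was higher (0.78), and the collagen receptor gene Itga1 (-1.03) and Sdc4 (-0.58) were lower. Immunoglobulin-rich cells had 65.6 and 66.7 CPM of Sdc1, and without the cells that carried immune RNA it was at 17.2 CPM in Tom+ against 12.2 CPM in Tom- (0.36), which is not past the limit. The lists had medians of -0.16, 0.10 and 0.0011 for components, processing genes and receptors. Over all genes tested, 4.14% were higher and 5.88% lower in Tom+ stromal cells.

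In mesothelial cells some of the 10 genes had less RNA in Tom+ than in Tom-, and how much less depended on thinning. Of the 10 genes, 3 were lower by the limit of 0.5, where 2.19% of 10014 genes were, and 0 were higher, where 2.47% were. They were Col15a1 at -1.52 (-2.16 to -0.93), Col4a2 at -0.52 (-0.75 to -0.31) and Lama2 at -0.52 (-1.01 to -0.059). With every cell thinned to 5000 UMIs these ratios were -0.35, -0.12 and 0.33, and none was past the limit. The Tom+ values rest on 25 UMIs of Col15a1, 190 of Col4a2 and 43 of Lama2 in 250 cells. Lum moved with them, from 89.7 CPM in Tom- to 44.0 CPM in Tom+ (-1.06), and its part in these differences was not tested. Other stromal markers fell less, with Pdgfra at 41.9 CPM in Tom+ against 51.4 CPM in Tom-. Dcn was at 9987 and 11318 CPM, Col1a1 at 826 and 929 CPM and Ly6a at 196 and 213 CPM. Pdgfrb (13.2 and 12.2 CPM) and Cd34 (435 and 417 CPM) were higher in Tom+. Immunoglobulin-rich cells were 40 of the 250 Tom+ and 6 of the 1887 Tom- mesothelial cells. Lyz2 was at 275 CPM in Tom+ against 10.8 CPM in Tom- mesothelial cells. Close to the median of all genes lay Col18a1 at -0.017 (-0.13 to 0.085), Lama4 at -0.011 (-0.16 to 0.14) and Col4a6 at 0.14 (-0.066 to 0.34). So did Nid1 at 0.052 and Lamc1 at -0.11, whose mesothelial levels were well below their stromal ones. Col4a1 was at -0.48 and Lamb1 at -0.43. None of the 20 other components, 12 processing genes and 14 receptors tested was past the limit in this comparison. At 250 cells, differences smaller than these intervals were not detectable.

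**Figure D4:**
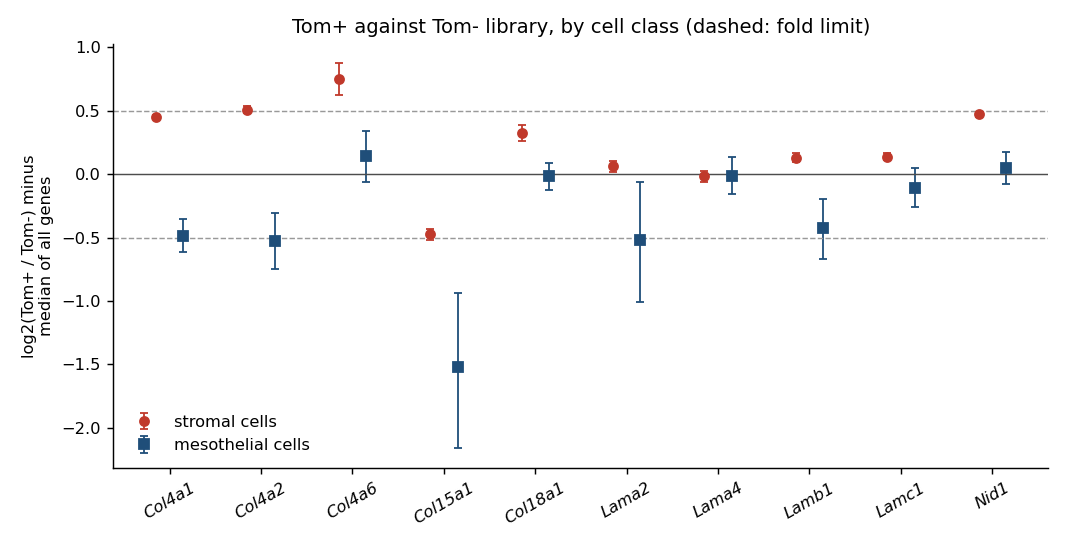
Log2 ratio of Tom+ over Tom- minus the median of all genes, for each gene in stromal cells (circles) and mesothelial cells (squares), with exact 95% counting intervals; dashed lines mark the fold limit of 0.5. Stromal Col4a6 and Col4a2 lie above the upper line, and mesothelial Col15a1, Col4a2 and Lama2 below the lower one.

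To see where among stromal cells these RNAs lay, cells of both libraries were put in 1 order, from those with the most progenitor marker RNA (Pi16, Dpp4, Cd55, Sema3c, Anxa3 and Wnt2) to those with the most preadipocyte marker RNA (Pparg, Fabp4, Cd36, Lpl and Cebpa), and divided into 5 equal bins. The order is a range, not a set of cell types: 429 to 1054 of the 8063 cells lay within 0.1 score units of each limit between bins. None of the 10 genes was used in it. Each bin held 18.9% to 20.9% of each library's stromal cells. Immunoglobulin-rich cells lay unevenly in the order, with 102 in Tom+ and 37 in Tom- in bin 2 against 20 and 8 in bin 1. The plasma cell gene Jchain was at 4593 and 2571 CPM in bin 2 and at 32.5 and 14.9 CPM in bin 1, so the levels were also taken in the same bins without cells with immune RNA, a choice made after the data were seen.

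Col4a1, Col4a2 and Col15a1 RNA was highest at the preadipocyte end. From bin 1 to bin 5, Col4a1 went from 570 CPM (555 to 586) to 2425 CPM (2395 to 2455) in Tom+ against from 385 CPM (374 to 397) to 1457 CPM (1436 to 1479) in Tom-, with each bin above the one before it. Col4a2 went from 217 to 1102 CPM and from 162 to 611 CPM in the same steady way. Col15a1 had the steepest course, from 28.7 CPM (25.3 to 32.4) to 298 CPM (287 to 308) in Tom+, 10.4 times as high, and from 58.3 CPM (54.1 to 62.8) to 349 CPM (339 to 360) in Tom-, 5.99 times as high. Col18a1 was also highest in bin 5, at 151 and 91.1 CPM, and lowest in bin 2, at 51.9 and 50.4 CPM. Without cells with immune RNA, Col4a1, Col4a2 and Col15a1 still climbed from each bin to the next in both libraries, and Col18a1 was at 68.7 and 56.1 CPM in bin 2 and at 61.8 and 58.2 CPM in bin 1, so its low point in bin 2 was no longer seen in Tom+.

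Nid1, Lama4, Lamb1 and Lamc1 RNA was highest at the progenitor end. Nid1 was at 1878 CPM (1850 to 1907) in Tom+ against 1303 CPM (1282 to 1323) in Tom- in bin 1, at 935 and 633 CPM in bin 2, and at 1194 and 750 CPM in bin 5. Lama4 was at 268 and 257 CPM in bin 1 and between 106 and 128 CPM in the other 4 bins of both libraries. Lamc1 (613 and 494 CPM) and Lamb1 (306 and 263 CPM) were likewise highest in bin 1 and lowest in bin 2. Without cells with immune RNA these 4 were still highest in bin 1 of both libraries, and the low point in bin 2 was lost, with Nid1 at 1249 and 710 CPM there, Lamc1 at 438 and 333 CPM and Lamb1 at 232 and 178 CPM. All 3 were then lowest in bin 3 or 4. Lama2 varied least, between 136 and 203 CPM in Tom+ against between 129 and 182 CPM in Tom-, and was in Tom- highest in bin 5. The other nidogen gene, Nid2, ran the other way, from 41.7 and 34.9 CPM in bin 1 to 69.7 and 88.5 CPM in bin 5. Col4a6 peaked in the middle, at 38.1 CPM (34.4 to 42.1) in bin 3 of Tom+ and 18.2 CPM (15.7 to 20.9) in bin 4 of Tom-, where neighbouring intervals overlapped. In Tom+ it was lowest in bin 5, at 12.4 CPM (10.4 to 14.8).

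Within the bins the libraries kept the directions seen over all stromal cells for most genes. Relative to the median of all genes of each bin, Col4a1 (0.20 to 0.64), Col4a2 (0.25 to 0.76) and Nid1 (0.41 to 0.62) were higher in Tom+ in 5 of 5 bins, as were Lamb1 and Lamc1 by at most 0.27. Col15a1 was lower in 5 of 5, at -1.14 in bin 1 and -0.32 in bin 5. Col4a6 was higher in bins 1 to 4 (0.71 to 1.05) and at -0.30 in bin 5, where the interval of its ratio held 0. Col18a1 lay between -0.0013 and 0.10 in bins 1 to 3 and was at 0.48 and 0.64 in bins 4 and 5. In bin 5, Cd36, a gene of the order, was at 151 CPM in Tom+ against 40.9 CPM in Tom-, and Lyz2 at 414 and 53.2 CPM. The bin ratios above include the cells with immune RNA. In bin 2, Col4a1 was at 698 and 632 CPM with those cells and at 913 and 707 CPM without them.

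**Figure D5:**
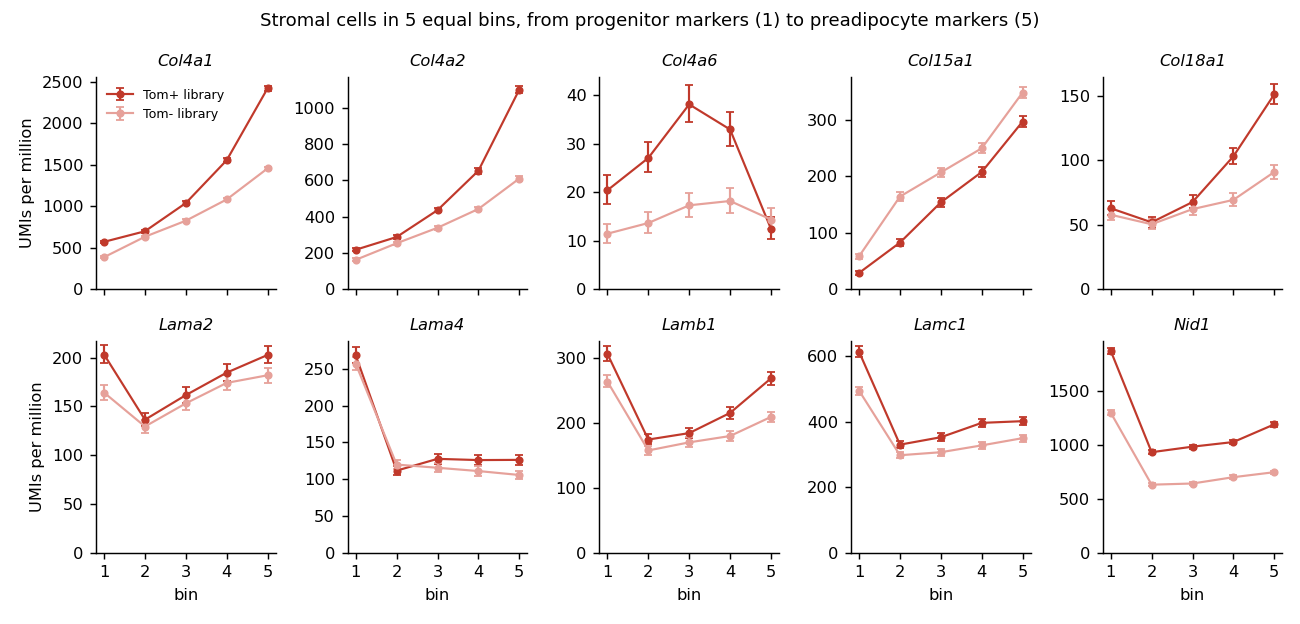
Level of each gene in CPM (vertical axis, from 0) in 5 equal bins of the stromal cells, from progenitor markers (1) to preadipocyte markers (5), in Tom+ (dark) and Tom- (light), with exact Poisson 95% intervals. Col4a1, Col4a2 and Col15a1 climb from bin 1 to bin 5, and Nid1, Lamc1, Lamb1 and Lama4 are highest in bin 1.

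Over these 10 stromal groups and the 2 mesothelial groups, the genes whose log2 level followed each member most closely were found among the 5932 genes that averaged 20 CPM or more. For Col4a1 it was Col4a2 (Pearson r = 0.9995), followed by Aoc3 (0.992) and Adamts12 (0.989). Col15a1 was followed by Spry1 (0.993), Gpx3 and Kdelr3, and Col4a6 by Ppme1 (0.928), Slco2a1 and Aebp1. Col18a1 had Rtf2 (0.974), Hmg20b and Plekhh2. Lama2 had Sobp (0.997), Igsf10 and Nav1, and Lama4 had Dbn1 (0.989), Smurf2 and Axl. Lamb1 had Ramp2 (0.994), Tppp3 and Tnxb, Lamc1 had Tnxb (0.995), Cnrip1 and Gpc6, and Nid1 had Fam171b (0.995), Fam171a1 and Lamc1. The 12 groups come from 2 libraries and the mesothelial groups stand far from the others, so these values describe the pattern and carry no p.

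In single stromal cells thinned to 5000 UMIs, Col4a1 and Col4a2 again formed the closest of the 45 pairs. Pearson r of their log-normalized values was 0.68 over 3144 cells in Tom+ and 0.58 over 4547 cells in Tom-, where the median pair had 0.13 and 0.10. Of Tom+ stromal cells with a Col4a1 UMI, 78.1% also had a Col4a2 UMI, against 33.2% of those without. In mesothelial cells Col4a1 and Col4a2 were not the closest pair. Their r was 0.066 in Tom+ and 0.23 in Tom-, where the highest pair had 0.18 and 0.26. The cells share a library and a depth, sparse counts can lower r, and r is given as a description.

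Inside the Tom+ library, stromal cells with a tdTomato UMI after thinning (550) were set beside those with none (2594). Of the first, 25.1% were immunoglobulin-rich, against 4.66% of the second, so cells with immune RNA were left out, which kept 394 and 2458. Col4a1 was then at 1061 CPM in cells with and 1314 CPM in cells without a tdTomato UMI, a relative log2 ratio of -0.29. Col4a2 was at 454 and 558 CPM (-0.28), Col18a1 at 70.1 and 89.2 CPM (-0.33), Nid1 at 1224 and 1330 CPM (-0.10) and Lamc1 at 421 and 463 CPM (-0.12). Col15a1 was at 163 and 148 CPM (0.16), and the intervals of the unadjusted ratios of Col15a1, Col4a6, Lama2, Lama4 and Lamb1 held 0. For Col4a1, Col4a2, Col18a1, Nid1 and Lamc1, whose intervals left out 0, the direction within the library was thus the opposite of that between the libraries. Col15a1, Col4a6 (-0.33), Lamb1 (-0.076) and Lama2 (-0.0065) also pointed the other way, with intervals that held 0. The difference between the contrasts was not tested. The reporter RNA itself varied along the order, from 130 CPM in bin 1 to 335 CPM in bin 2 and 167 CPM in bin 5. These reporter levels include the cells with immune RNA, and bin 2 of Tom+ held 102 immunoglobulin-rich cells against 20 in bin 1. A cell without a tdTomato UMI in the Tom+ library was still sorted as Tom+.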

How the data were processed

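Single-cell suspensions of gWAT were made into 3' gene expression libraries, and Cell Ranger 3.0.2 assigned reads of each barcode to genes of mm10 (GRCm38). The authors deposited raw UMI counts per gene and barcode, whole numbers without normalization, which were used as deposited. No further filter on doublets was applied, and cells with the most UMIs or with markers of other types were left out in alternatives.

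UMIs were summed per library and class and scaled to CPM (per 1000000 UMIs of those cells). Levels have exact Poisson intervals, shares Clopper-Pearson intervals, and ratios exact conditional intervals at 95%, covering counting error only. Log2 ratios were read against the median over genes that averaged 5 CPM or more, with limits of 0.5 between libraries and 1 between classes. With 1 library per group no test was run. Cells were thinned to 5000 UMIs where shares were compared. The named genes were the 10 members, up to 6 other basement membrane genes past a limit per comparison, by size, the 3 genes most like each member, and tdTomato; further genes of those lists named beside them were chosen after their values were seen. A gene of those lists is not reported here. Members and lists were chosen with earlier results of these data known. On simulated Poisson counts of 10032 genes, at totals below those of these 2 libraries, 95.14% of intervals held the simulated ratio. The simulation had no variation between cells or libraries and was not run at the depth of the mesothelial classes, so it checks the calculation only. Of the 31054 gene IDs, 30934 were found in GENCODE vM21, which gave the coordinates. Python 3.11.15, numpy 2.4.6, scipy 1.17.1, pandas 2.3.3 and matplotlib 3.10.9 were used.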

Additional observations from a re-analysis of the deposited data

Results flagged for a closer look

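For 4 genes the difference between the Tom+ and Tom- libraries pointed one way in stromal cells and the other way in mesothelial cells, with counting intervals that left out 0 in both classes. The difference between the classes was not itself tested, and each class had 1 library per group. On the log2 scale relative to all genes, Col4a1 was at 0.45 in stromal and -0.48 in mesothelial cells, and Col4a2 at 0.51 and -0.52. For Lama2 the values were 0.061 and -0.52, and for Lamb1 0.13 and -0.43. In mesothelial cells Lum, a stromal gene, moved with them, at 44.0 CPM in Tom+ against 89.7 CPM in Tom-, and its part in these values was not tested. The stromal markers Pdgfra, Dcn, Col1a1 and Ly6a fell less than Lum, and Pdgfrb and Cd34 were higher in Tom+ mesothelial cells. Immunoglobulin-rich cells were 40 of the 250 Tom+ and 6 of the 1887 Tom- mesothelial cells. With every cell thinned to 5000 UMIs, the mesothelial values were -0.41 for Col4a1, -0.12 for Col4a2, -0.23 for Lamb1 and 0.33 for Lama2.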

How the results depend on the processing

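The alternatives changed counts of genes near the limits and, outside the comparison of mesothelial cells between the libraries, few directions. Between stromal cells of the libraries, 2 genes were higher and 0 lower. With size factors, stricter class limits or a minimum of 1 CPM, 1 was higher, and with no subtraction of the median 4 were. In each of 7 settings (mean of per-cell CPM, a mitochondrial limit of 5%, no barcodes listed in both libraries, no cells in the top 5% by UMIs, no cells with markers of other types, thinning, and, chosen after seeing the data, no cells with immune RNA) 1 was lower. Col15a1 kept its negative sign in 14 of 14 settings (-0.65 to -0.40), and Col4a1 (0.38 to 0.52), Col4a2 (0.43 to 0.58), Col4a6 (0.64 to 0.84) and Nid1 (0.45 to 0.57) their positive one. The sign of Lama4 was kept in 4 of 14.

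Between mesothelial cells of the libraries, 3 genes were lower, against 1 with the mean of per-cell CPM, stricter class limits, no top 5% of cells or no subtraction of the median, and 0 after thinning, where Lama2 turned to 0.33. Without cells with markers of other types, 2 were higher, with Col15a1 at 0.72 and Lama2 at 1.17, and in Tom+ 1 gene was higher in mesothelial than in stromal cells. That setting left 22 Tom+ and 327 Tom- mesothelial cells, since Cd74, Kdr and Mbp of those markers were found in the class itself (Cd74 at 411 and 492 CPM). The sign between mesothelial cells of the libraries was kept in 8 of 12 settings for Col18a1 and in 9 for Lama4 and Nid1. It was kept in 10 for Lama2 and Lamc1, in 11 for Col15a1 and Col4a6, and in 12 for Col4a1, Col4a2 and Lamb1. Between classes each of the 10 genes kept its sign in 12 of 12 settings in both libraries. No paired analysis was possible because each group held 1 library. At the depth of the 250 Tom+ mesothelial cells, Col15a1 and Lama2 rest on 25 and 43 UMIs.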
